A study of Mus musculus with 14 samples.

Results

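The miR-322, miR-503, miR-351, miR-542 and miR-450 cluster is a run of miRNA genes on the mouse X chromosome, and 6 of its mature products were followed across 14 tissues. They were taken by name from a table of 1046 miRNA names: mmu-miR-322, mmu-miR-503, mmu-miR-351, mmu-miR-542-3p, mmu-miR-542-5p and mmu-miR-450a. The first 5 stand under exactly these names, and mmu-miR-450a was taken for miR-450a-5p, because the table lists its opposite arms separately as mmu-miR-450a-1* and mmu-miR-450a-2*. Another 7 names of the table belong to the same cluster, and they are used for the opposite arms and for miR-450b.

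The study profiled small RNA by sequencing in C57BL/6J mice, an inbred strain, and each tissue is represented by 1 library made from pooled RNA. The tissues were lung, kidney, spleen, heart, oesophagus, brain, ovary, stomach, liver, uterus, small intestine, cerebellum, pancreas and colon. Per the labels, no treatment or genotype separated them, age and sex are not stated, and the number of mice is given as 5 in one place and 10 in another. With pooled RNA and no second library there was no replicate check, no test between tissues was possible, and every interval below is a 95% interval that covers counting error only. In such bulk samples, fewer cells that hold a miRNA and less of it per cell cannot be told apart.

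In mammals the miR-322 and miR-503 genes are transcribed together as a primary transcript, and their products belong to, or resemble, the miR-15/16 family, which represses cyclins and other cell-cycle genes. Human miR-424 is the counterpart of miR-322, and both miR-322 and miR-503 have been studied in muscle differentiation and in blood vessel cells. miR-351 is a rodent relative of the miR-125 family. A miRNA selects its targets mainly through its seed, bases 2 to 8 from the 5′ end, and a hairpin precursor can release a mature strand from either arm (5p or 3p), of which one usually accumulates.

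The mature sequences show which members could share targets and which could share reads. They were matched in RefSeq (GRCm38.p6) for all 6 names and are written 5′ to 3′ with the seed in capitals. The table itself holds no sequences, so that miR-322, miR-503 and miR-351 are the 5p arms rests on the naming convention.
miR-322: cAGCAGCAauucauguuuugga
miR-503: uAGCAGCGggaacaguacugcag
miR-351: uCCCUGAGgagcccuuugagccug
miR-542-3p: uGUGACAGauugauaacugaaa
miR-542-5p: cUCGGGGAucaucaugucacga
miR-450a: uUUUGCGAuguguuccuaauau
All 6 seeds differ. The miR-503 seed departs from that of miR-322 only in its last base, and position by position from the 5′ end 11 of 22 bases are the same in the whole sequences. miR-322 has the same seed as miR-15a, miR-15b, miR-16, miR-195 and miR-497, and miR-351 has the same seed as miR-125a-5p and miR-125b-5p. RefSeq holds 10 names with the first seed and 5 with the second, of which 6 and 3, members included, were matched to names of the table and only these were compared. These relatives are shown because the levels of miR-322 and miR-351 are set beside theirs below.
miR-15a: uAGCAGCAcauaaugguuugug
miR-15b: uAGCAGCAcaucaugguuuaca
miR-16: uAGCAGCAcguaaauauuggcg
miR-195: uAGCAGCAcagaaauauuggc
miR-497: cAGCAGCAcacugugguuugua
miR-125a-5p: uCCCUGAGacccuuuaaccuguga
miR-125b-5p: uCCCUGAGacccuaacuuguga
Positions were compared from the 5′ end without gaps over the whole sequence, seed included. By this count miR-322 had 11 of 21 positions in common with miR-195, 12 of 22 with miR-16 and 16 of 22 with miR-15b, its closest relative in the set. miR-351 had 10 of 24 in common with miR-125a-5p, but stretches that match at shifted positions, as these 2 sequences have, are not counted. How reads that match several names were assigned is not stated, so the closest pairs may share reads.

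Which arm of a precursor is counted matters for miR-542, miR-322 and miR-503, so their hairpins are shown with both mature arms in capitals, the 5p arm first. RefSeq places Mir322 at chrX:53054255-53054349, Mir503 at chrX:53053984-53054054 and Mir542 at chrX:53049403-53049487, all on the minus strand of GRCm38.p6.
Mir322: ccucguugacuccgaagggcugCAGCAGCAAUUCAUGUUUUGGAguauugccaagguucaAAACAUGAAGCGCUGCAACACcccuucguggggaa
Mir503: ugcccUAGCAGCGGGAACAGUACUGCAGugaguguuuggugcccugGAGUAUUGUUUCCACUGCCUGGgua
Mir542: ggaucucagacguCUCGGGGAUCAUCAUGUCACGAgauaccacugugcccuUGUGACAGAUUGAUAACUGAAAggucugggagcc
In that annotation the genes lie in the order Mir322, Mir503, Mir351, Mir542, Mir450-2, Mir450-1 and Mir450b along the direction of transcription. A long non-coding RNA gene spans the first 3. Mir542 and the Mir450 genes lie downstream of it, and Hprt is the nearest protein-coding gene beyond Mir450b.

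Depth and make-up of the libraries limit what can be compared. Total counts ran from 622132 reads in pancreas to 9341000 in small intestine, with 1134677 in cerebellum and 2267218 in ovary. miR-143, a miRNA of smooth muscle, held 98.7% of the reads of the library labelled colon and 87.1% of those of ovary, against 4.01% in pancreas and 4.53% in cerebellum. That left 86545 reads other than miR-143 in the library labelled colon and 292350 in ovary. The 3 intestinal epithelial miRNAs (miR-192, miR-194 and miR-215) summed to 78772 RPM (reads per 1000000 reads of all miRNA names in the library) in the library labelled uterus and to 25.2 RPM in the one labelled colon, so both are named by their labels only. miR-202, the gonad marker, had reads in ovary (8.82 RPM over both arms). Levels below are in RPM unless another scaling is named.

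Lung held the highest level of the cluster, and the lead of lung was larger for miR-542 and miR-351 than for miR-322. The 6 members summed to 1132 RPM in lung (1105–1160, 6724 reads), 457 RPM in kidney and 439 RPM in spleen. Heart had 226 RPM, oesophagus 225, brain 186, ovary 156 and stomach 142 RPM. Liver had 84.0 RPM, the library labelled uterus 76.2, small intestine 51.7 and cerebellum 47.6 RPM. Pancreas had 17.7 RPM (8.83–31.6, 11 reads) and the library labelled colon 4.05 RPM (2.67–5.89, 27 reads). Lung was 2.48-fold above kidney (2.39–2.58) and 7.93 times the median of the other 13 libraries, with 1 RPM added to both. Kidney and spleen did not differ beyond counting error (1.04-fold, 0.987–1.10). Heart and oesophagus, ovary and stomach, liver and the library labelled uterus, and small intestine and cerebellum were likewise not separated.

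**Figure D1:**
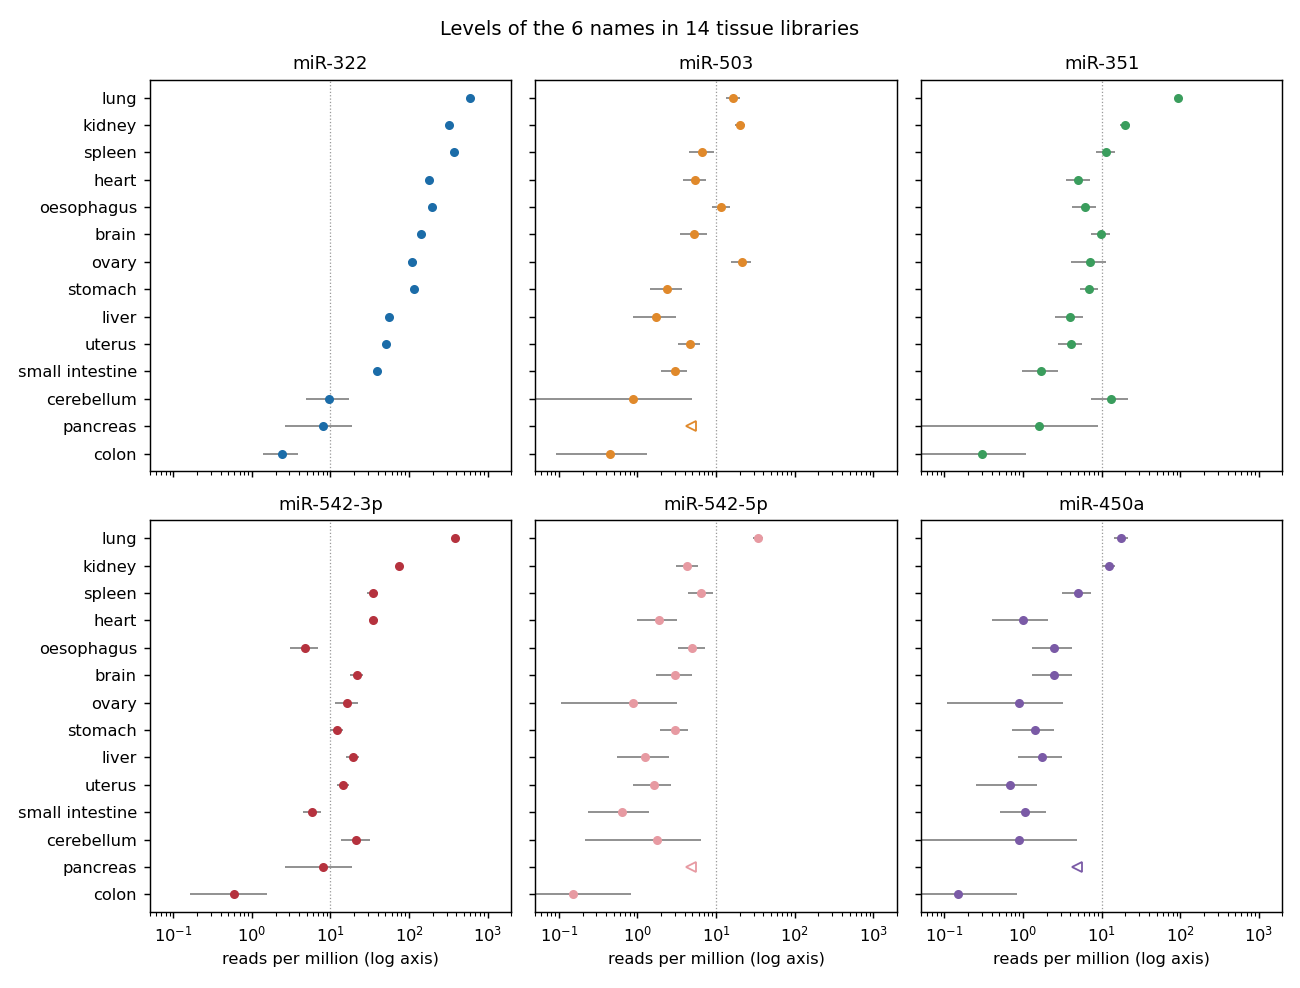
Level of each of the 6 names in each library, in RPM on a log axis, with libraries in the order of the summed level. Points are the measured values, bars are exact Poisson 95% intervals (cut at the left edge where they run off it), left-pointing open triangles mark the level of 3 reads where no read was counted, and the dotted line marks 10 RPM. Lung is the highest library in every panel except that of miR-503, where ovary, kidney and lung lie between 16.5 and 21.2 RPM.

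miR-322, the seed relative of miR-16, was the most abundant member in 12 of the 14 libraries, all but cerebellum and pancreas. It had 590 RPM in lung (571–610), 376 in spleen, 324 in kidney, 195 in oesophagus, 177 in heart, 144 in brain, 116 in stomach and 110 in ovary. It had 56.3 RPM in liver, 50.8 in the library labelled uterus and 39.4 in small intestine. Cerebellum had 9.69 RPM from 11 reads, pancreas 8.04 RPM from 5 and the library labelled colon 2.40 RPM from 16. It was thus broadly present: 11 libraries reached 10 RPM and 8 reached 100 RPM. Lung was 1.57-fold above spleen (1.48–1.66), which was 1.16-fold above kidney (1.09–1.23). Brain and cerebellum, both nervous tissue, stood far apart for this member, at 144 and 9.69 RPM.

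The strand named miR-503, from the second gene of the cluster, was the exception to the lead of lung. It had 21.2 RPM in ovary (15.6–28.1, 48 reads), 20.3 in kidney, 16.5 in lung and 11.6 in oesophagus. In the 10 other libraries it lay between 0 and 6.59 RPM, with spleen highest among them and no read in pancreas, where a count of 0, read as up to 3 reads, allows 4.82 RPM. Ovary and kidney were not separated (1.05-fold, 0.745–1.44), nor were kidney and lung (1.23-fold, 0.956–1.58). The opposite arm, miR-503*, had 55.2 RPM in lung and 1.76 in ovary. With both arms summed, lung led at 71.7 RPM, with 54.4 in kidney, 28.4 in oesophagus and 22.9 in ovary.

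miR-351, the miR-125 relative, reached 93.3 RPM in lung (85.7–101.4, 554 reads) and 20.04 RPM in kidney. Cerebellum had 13.2 RPM, from 15 reads, and spleen 11.3 RPM. The 10 remaining libraries lay between 0.300 RPM in the one labelled colon and 9.78 RPM in brain. Lung was 4.66-fold above kidney (3.93–5.53), and from kidney down to liver no neighbours in the order differed beyond counting error. Libraries further apart in the order could still differ: the intervals of kidney (17.3–23.1 RPM) and spleen (8.54–14.7 RPM) did not meet.

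miR-542-3p, the main strand of its hairpin in all but 1 well-covered library, stood furthest above the other libraries in lung. It had 380 RPM in lung (365–396, 2259 reads), 75.2 in kidney, 35.2 in heart, 34.4 in spleen, 21.4 in brain and 21.2 in cerebellum. It had 19.1 RPM in liver, 16.3 in ovary, 14.5 in the library labelled uterus and 12.0 in stomach. Pancreas had 8.04 RPM, small intestine 5.89, oesophagus 4.76 and the library labelled colon 0.599 RPM. Lung was 5.06-fold above kidney (4.65–5.52) and 22.0 times the median of the others. Kidney was 2.14-fold above heart (1.84–2.48), and between brain and oesophagus no neighbours in the order were separated. The ends of that run were, as the intervals of brain (17.7–25.8 RPM) and oesophagus (3.08–7.03 RPM) did not meet. Oesophagus, rank 4 of the 14 for miR-322, was next to last for miR-542-3p.

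The opposite arm, miR-542-5p, had 34.4 RPM in lung (204 reads), 6.39 in spleen, 4.95 in oesophagus, 4.33 in kidney, 3.01 in brain and 2.96 in stomach. The 8 other libraries lay between 0 and 1.87 RPM. Lung was 5.38-fold above spleen (3.67–8.12), and no later neighbours in the order were separated. Spleen (4.34–9.07 RPM) and small intestine (0.236–1.40 RPM), further apart in the order, had intervals that did not meet. miR-450a, from the downstream end of the cluster, had 17.7 RPM in lung and 12.3 in kidney, a 1.43-fold difference (1.09–1.88), then 4.94 in spleen and 2.48 or less in the remaining libraries. It had reads in 13 of the 14 libraries, as miR-542-5p and miR-503 did, and none in pancreas.

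Set against all names of the table, the cluster was tilted to lung but not confined to it. A name counted as enriched if it reached 100 RPM in its top library and 5 times the level of the next one, with 1 RPM added to both. This held for 44 of the 805 names with reads, which is 5.47%, and for 1 of the 6 members, miR-542-3p, whose ratio of 5.01 lay just inside the limit. With median-of-ratios factors or without the 5 most abundant names, miR-503 in ovary met the rule in its place. In both settings the next library was the one labelled colon, on 3 reads against 48 in ovary. The folds, with no RPM added, were 19.6 (6.33–98.6) and 8.45 (2.72–42.4), and the second interval reached below 5-fold. miR-542-5p at 4.79 and miR-351 at 4.48 lay just outside it, and both were also under 100 RPM. The specificity index tau runs from 0 for even levels to 1 for a single tissue, and 21.3% of the 418 names that reached 10 RPM anywhere had 0.85 or more. None of the 6 members did: tau was 0.35 for miR-322, 0.49 for miR-503, 0.54 for miR-542-3p, 0.59 for miR-351, 0.68 for miR-450a and 0.71 for miR-542-5p. A further rule asked for at least 4 times the median of the other 13 libraries and 100 RPM. It was counted only where a member passed, which was lung alone. In lung it was met by 42 of the 805 names with reads (5.22%) and by 2 members, miR-322 (5.33 times) and miR-542-3p (22.0 times). Only 210 names reached 10 RPM in lung, so most of the 805 could not pass. miR-351 reached 13.3 times the median in lung but stayed under 100 RPM.

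Which library led depended on the scaling for the summed level and for miR-322, miR-351 and miR-450a, with ovary ahead wherever lung was not. With miR-143 left out of the totals, the summed level was 2913 RPM in lung, 1211 in ovary and 911 in spleen, and lung was 2.41-fold above ovary (2.16–2.68). With median-of-ratios factors, which were set on the 162 names with reads in every library, ovary had 1206 and lung 407, a 2.96-fold lead of ovary (2.65–3.30). With the 5 most abundant names left out of each total, ovary had 6593 RPM and lung 5091, 1.29-fold (1.16–1.44). With median-of-ratios factors miR-322 had rank 3 in lung, behind ovary and heart. For miR-351 (1.63-fold, 0.922–2.66) and miR-450a (1.07-fold, 0.128–3.97), the ovary lead under those factors was within counting error, on 16 and 2 ovary reads. For the strand miR-503 ovary was highest under all 4 scalings, but by library totals ovary and kidney were not separated (1.05-fold, 0.745–1.44). Once miR-143 was left out, ovary stood 3.87-fold above lung (2.68–5.52), at 164 against 42.5 RPM. The opposite arm, miR-503*, then had 13.7 RPM in ovary and 142 in lung. That lead was one of the strand and not of the hairpin. Lung was highest for both arms of miR-542 under all 4, although with median-of-ratios factors lung and ovary were not separated for miR-542-3p (1.08-fold, 0.785–1.55) or miR-542-5p (1.81-fold, 0.495–15.1). Median-of-ratios factors raised all ovary values by 2.95 and lowered all lung values by 1.48 on the log2 scale relative to totals.

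**Figure D2:**
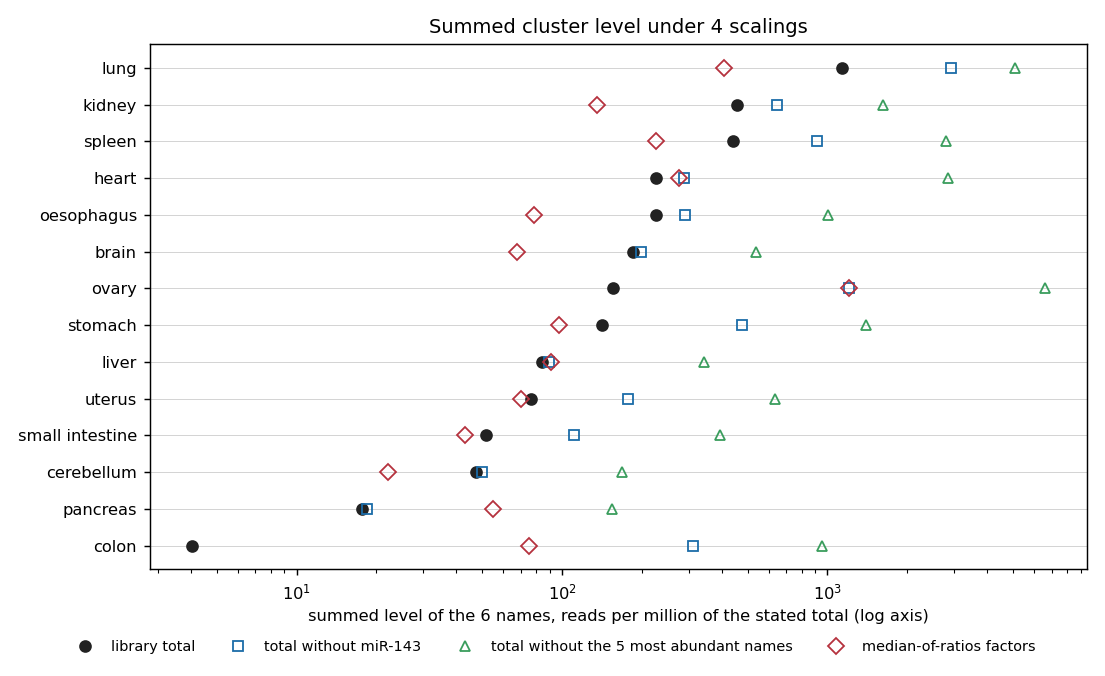
Summed level of the 6 names in each library under 4 scalings, in RPM of the stated total on a log axis. Filled circles use the library total, squares the total without miR-143, triangles the total without the 5 most abundant names, and diamonds median-of-ratios factors. Lung is rightmost for circles (1132) and squares (2913), and ovary is rightmost for triangles (6593) and diamonds (1206).

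Markers of several cell types also stood high in lung. The 2 arms of miR-126, an endothelial miRNA, summed to 31251 RPM in lung, which was highest, then 15970 in oesophagus, 14227 in kidney and 9932 in spleen. Ovary had 117 RPM and the library labelled colon 45.9 RPM of them, both lowered by the large miR-143 share there. With miR-143 left out of the totals they had 910 and 3536 RPM, and lung, still highest, had 80387. Both arms had reads in all 14 libraries. The 3 multiciliated-cell names, miR-34b-5p, miR-34c and miR-449a, summed to 5621 RPM in lung, all 3 with reads, 2005 in brain and 647 in kidney. Nearly all of this was miR-34c, at 5573 RPM in lung, 1987 in brain and 644 in kidney. The 7 blood-cell names summed to 14825 RPM in spleen and 1908 in lung, with reads for all 7 in both. The 4 fibroblast and mesenchyme names summed to 2246 RPM in oesophagus, 1596 in lung and 1253 in stomach. The part of these cell types in the lung lead was not tested.

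Within a library, the share of each member does not depend on the scaling. Among libraries with at least 20 reads of the 6 names, the share of miR-322 was lowest in cerebellum and next lowest in lung. The share in lung was not separated from that in the library labelled colon (59.3%, 38.8–77.6%, 27 reads). The mature strands are all 22 to 24 bases long, so reads were not divided by length, but sequences can enter a library with unequal efficiency and shares are shares of reads. miR-322 made up 52.1% of the reads of the 6 names in lung (50.9–53.3%), against 86.7% in oesophagus (84.6–88.6%) and 85.5% in spleen. It had 71.1% in kidney, which was also the median of the 13 libraries with at least 20 such reads. miR-542-3p made up 33.6% in lung (32.5–34.7%), 22.7% in liver, 19.0% in the library labelled uterus, 16.5% in kidney and 7.83% in spleen, and 2.12% in oesophagus (1.37–3.11%).

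Cerebellum departed most from the usual order, on few reads. miR-322 was 11 of its 54 cluster reads, or 20.4% (10.6–33.5%), miR-542-3p was 44.4% (30.9–58.6%) and miR-351 was 27.8% (16.5–41.6%). Its interval for miR-322 did not meet that of any of the 12 others with at least 20 reads, of which lung had the lowest share. Per 100 reads of miR-322 there were 218 reads of miR-542-3p in cerebellum, 64.5 in lung, 33.9 in liver, 23.2 in kidney, 14.9 in brain, 9.16 in spleen and 2.44 in oesophagus. The cerebellar ratio had a wide interval (1.03 to 4.93 reads of miR-542-3p per read of miR-322). In ovary, the strand miR-503 made up 13.6% (10.2–17.6%), against a median of 2.84% and 1.46% in lung (1.18–1.77%). This share leaves out its opposite arm. With both arms counted, the miR-503 hairpin gave 8.75% of the reads of all 13 cluster names in ovary and 5.50% in lung. The library labelled uterus had 10.5% and kidney 9.46%, so ovary did not stand out by hairpin.

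**Figure D3:**
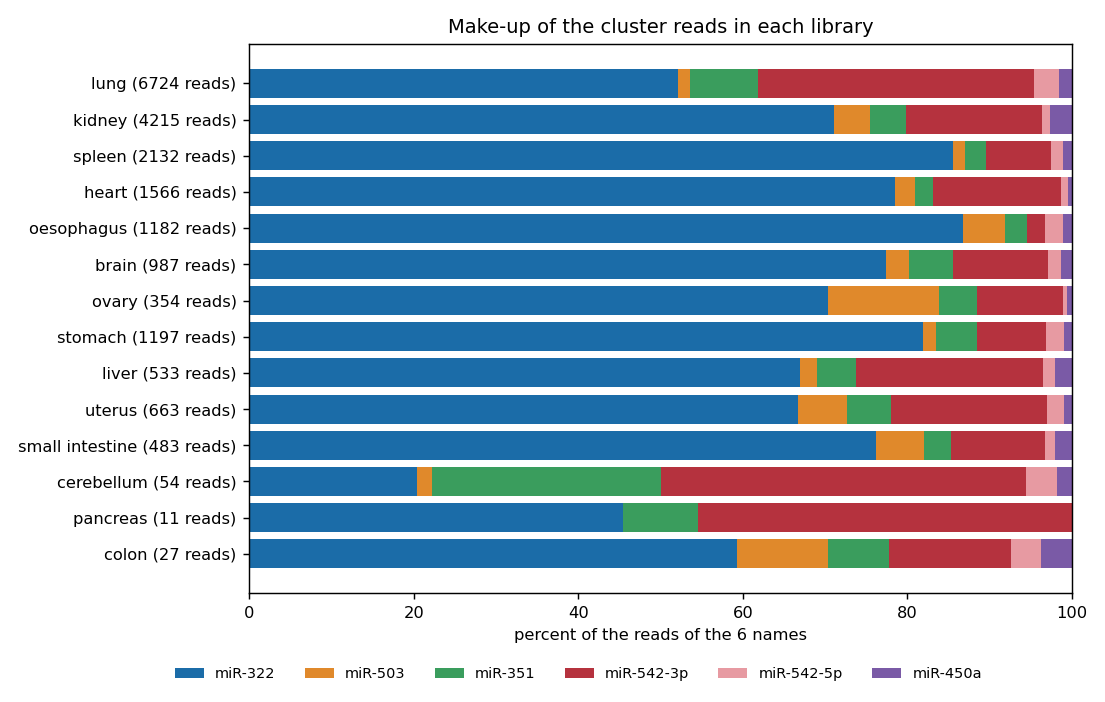
Share of each of the 6 names in the reads of all 6, in percent, for each library, with the number of reads beside its name. miR-322 takes 52.1% in lung and 86.7% in oesophagus, miR-542-3p takes 33.6% in lung and 2.12% in oesophagus, and cerebellum, with 54 reads, has more miR-542-3p and miR-351 than miR-322.

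Over all 13 names of the cluster, the hairpins downstream of the long non-coding RNA gene (miR-542, miR-450a and miR-450b) gave 35.8% of the reads in lung (34.7–36.9%), 25.1% in liver and 20.9% in the library labelled uterus. Kidney had 19.4%, heart 16.8%, brain 15.4%, spleen 11.9% and oesophagus 9.52%, and ovary had the lowest share of the well-covered libraries, 7.58% (5.58–10.0%). In cerebellum 30 of 60 reads came from them. The intervals of lung and ovary lay far apart, and miR-542-3p alone gave most of the downstream reads in lung.

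The 3p arm of miR-542 was the main one in nearly all libraries, and oesophagus was the exception. The 3p arm made up 94.9% in heart (244 against 13 reads), 94.9% in ovary (37 against 2), 94.6% in kidney (694 against 40), 93.8% in liver (121 against 8) and 92.3% in cerebellum (24 against 2). It made up 91.7% in lung (2259 against 204, 90.6–92.8%), 90.2% in small intestine (55 against 6), 90% in the library labelled uterus (126 against 14) and 87.7% in brain (114 against 16). Spleen had 84.3% (167 against 31, 78.5–89.1%) and stomach 80.2% (101 against 25, 72.1–86.7%). Oesophagus had 49.0% (25 against 26 reads, 34.8–63.4%), and its interval did not meet that of any other library with at least 20 reads over both arms. Pancreas, with 5 reads against 0, and the library labelled colon, with 4 against 1, were too shallow for a share. The ratio of 3p to 5p thus ran from 0.962 in oesophagus to 18.8 in heart.

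The low share in oesophagus went with a low level of the 3p arm, while the 5p arm and miR-450b-3p were not low there. Per 100 reads of miR-322, miR-542-5p had 2.54 reads in oesophagus, 5.82 in lung, 2.55 in stomach, 2.09 in brain and 1.34 in kidney, so oesophagus lay among the others. miR-450b-3p, from the downstream end of the cluster, had 80 reads in oesophagus against 25 of miR-542-3p, and oesophagus was the only library with reads of both in which miR-542-3p was the lower. The ratio of miR-542-3p to miR-450b-3p was 0.312 there (0.191–0.495), against 3.48 in stomach (2.29–5.46), the next lowest, 4.51 in kidney and 15.7 in lung. miR-450b-3p may hold reads of mmu-miR-450a-1*, from which it differs at 2 of 22 bases. That name had at most 1.35 RPM in any library, but reads assigned to miR-450b-3p would be missing from this count, so it sets no limit.

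How this span compares with that of other hairpins depended on the measure. On the log2 scale, with 0.5 reads added to each arm, the miR-542 ratio spanned 4.23 over 12 libraries. It ranked 71 of the 133 hairpins with at least 10 libraries of 20 or more reads over both arms, whose median span was 4.39, and without oesophagus it spanned 2.19. As a share of both arms it spanned 45.9 percentage points, rank 14 of the same 133, whose median span was 6.12 points. The log2 span is also wide for hairpins with almost no reads of one arm: let-7i had a like span (4.27) with shares of 98.5% to 99.9%. In oesophagus miR-542 stood 3.35 below its own median over the other libraries. The 132 hairpins counted there had a median deviation of 0.06, and the middle 80% of them lay between −1.94 and 1.92.

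The other hairpins of the cluster moved differently. miR-322 was over 80% of its 2 arms in the other 10 libraries that had 20 or more reads, from 81.3% in oesophagus to 98.7% in brain (764 against 10 reads), but 52.2% in ovary and 39.0% in the library labelled colon (24.2–55.5%, 16 against 25 reads). In ovary miR-322* made up 228 of 477 reads, or 47.8% (43.2–52.4%), and its 100.6 RPM there was its highest level, above 77.5 RPM in lung. The span of miR-322 was 6.81 on the log2 scale, rank 20 of 133, and 59.7 points as a share, rank 9. miR-503 had the reverse order of arms: over the 11 libraries with at least 20 reads it had 590 reads, against 1047 of the star-named miR-503*. The star name, which in the older convention marks the lesser strand, was therefore the more abundant one in 8 of these 11 libraries, with miR-503 at 18.03% in liver, 23.0% in lung (19.1–27.3%) and 37.3% in kidney (33.0–41.6%). In ovary miR-503 made up 92.3% (48 against 4 reads, 81.5–97.9%). miR-351 had the narrowest span of these 4 hairpins, between 78.1% in liver and 95.2% in stomach, with rank 123 of 133 on the log2 scale and rank 46 as a share.

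**Figure D4:**
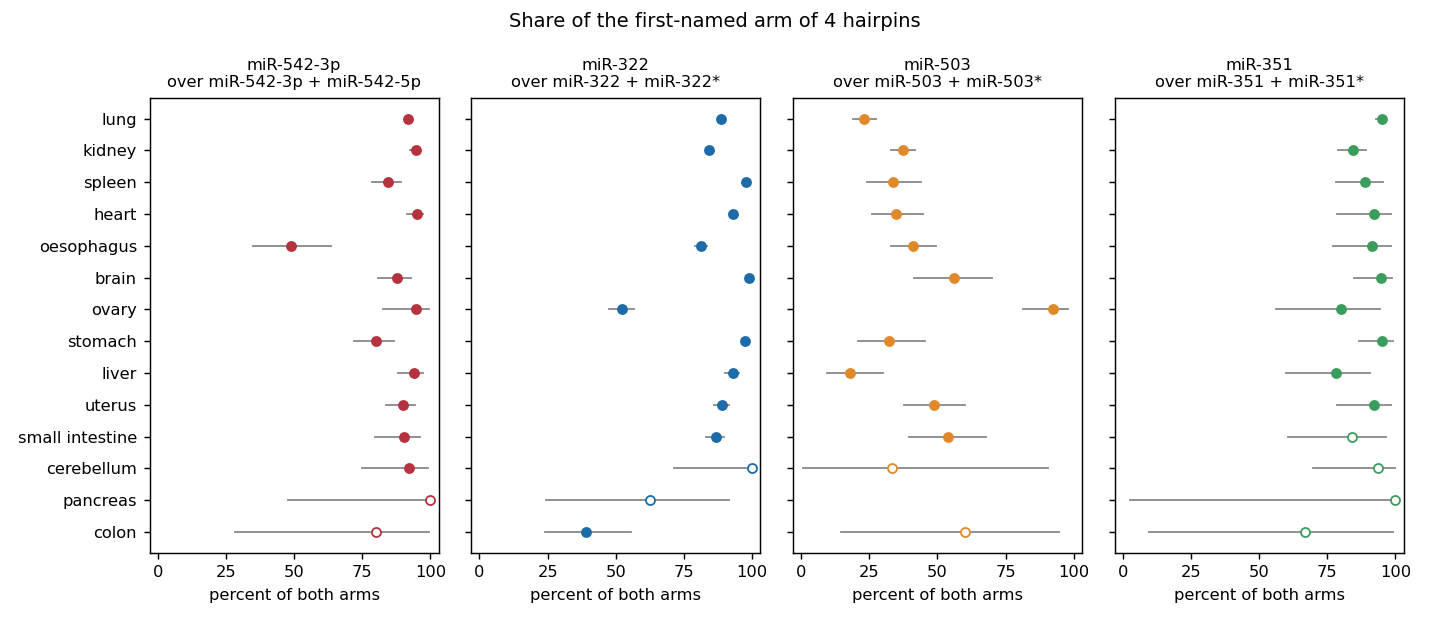
Share of the first-named strand in the reads of both strands of its hairpin, in percent, for miR-542-3p, miR-322, miR-503 and miR-351 in each library. Points are measured shares, bars are exact binomial 95% intervals, and open points have under 20 reads over both strands. miR-542-3p drops to 49.0% in oesophagus, miR-322 to 52.2% in ovary and 39.0% in the library labelled colon, and miR-503 lies at 92.3% in ovary and 23.0% in lung.

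In ovary, then, the hairpins of miR-322 and miR-503 moved in opposite directions. Relative to their own medians over the other libraries, the log2 arm ratio deviated by −2.87 for miR-322 and by 4.25 for miR-503. The 65 hairpins counted in ovary had a median deviation of −0.13, and the middle 80% of them lay between −3.75 and 2.68, a wider spread than in the deeper libraries. In ovary miR-322 was thus inside that range and miR-503 above it. miR-351, also upstream, deviated by −1.47 there, inside the range. In the library labelled colon, with 70 hairpins, the median was −1.22 and the middle 80% lay between −3.64 and 1.22, so that miR-322, at −3.62, was inside that range.

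Among the compared miRNAs with its own seed, miR-322 was the most abundant in 2 libraries. It made up 52.2% of the reads of the 6 compared names with its seed in ovary (47.6–56.8%, 249 of 477 reads) and 39.7% in heart (38.0–41.5%). In lung, where its level was highest, it made up 25.7% (25.0–26.5%) and had rank 3, behind miR-195 with 4428 reads and miR-16 with 4329. It had 17.4% in kidney, 11.4% in brain, 10.1% in spleen, 8.13% in liver and 7.02% in oesophagus, and the lowest shares were 2.21% in cerebellum and 1.79% in the library labelled colon. Oesophagus and heart, both with cluster sums near 225 RPM, thus differed in this share. By library totals the 6 names with the seed summed to 2778 RPM in oesophagus and to 447 RPM in heart. miR-322 itself had 195 and 177 RPM there. With median-of-ratios factors miR-322 was lower in oesophagus (68.0) than in heart (216). Which names made the difference thus depended on the scaling. In ovary the relatives had 157 reads of miR-195, 68 of miR-16, 2 of miR-497, 1 of miR-15b and none of miR-15a.

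**Figure D5:**
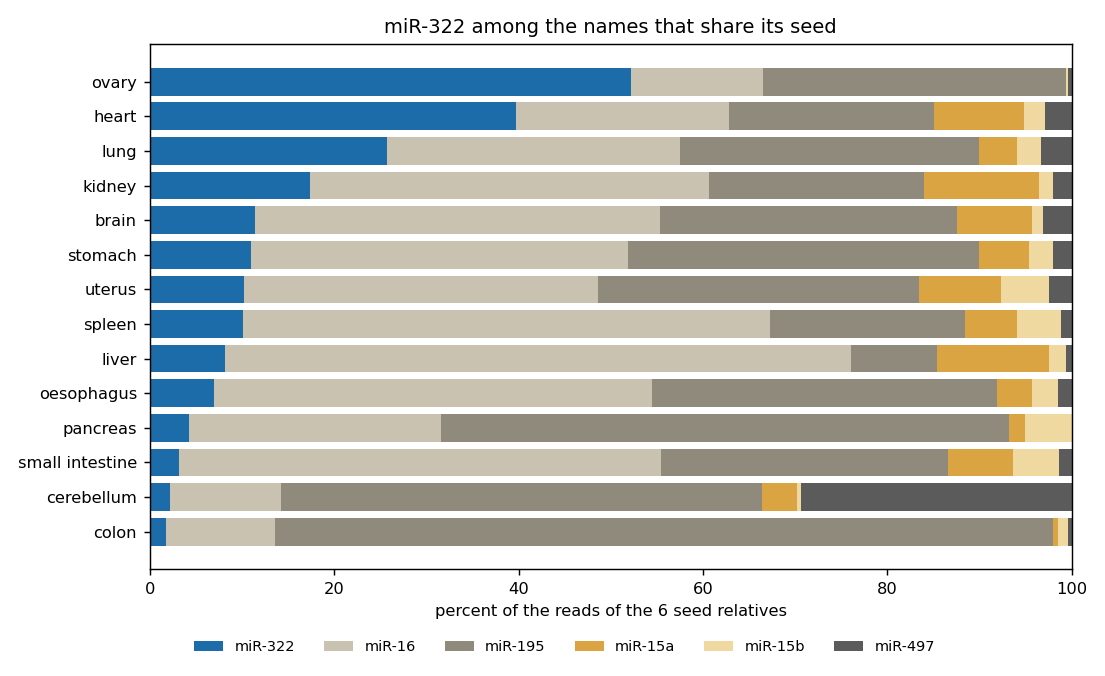
Share of miR-322 and of the 5 other compared names with its seed in their summed reads, in percent, with libraries in the order of the miR-322 share. miR-322 takes the largest share in ovary (52.2%) and heart (39.7%), and 25.7% in lung.

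miR-351 was the least abundant of the 3 compared names with its seed in all 14 libraries. Its share beside miR-125a-5p and miR-125b-5p was 10.5% in ovary (6.10–16.4%), 6.96% in lung (6.41–7.54%), 3.26% in spleen and 2.22% in kidney, and 0.272% in oesophagus and 0.135% in cerebellum. In cerebellum, where miR-351 was at rank 3 of the 14 libraries with 13.2 RPM, miR-125a-5p had 6522 RPM and miR-125b-5p 3265 RPM.

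Across the 14 libraries the levels of the members ran in parallel, though not tightly for every pair. The points share libraries, totals and depth, so the coefficients are descriptions. Over the 15 pairs of members, Pearson's r on log2(RPM + 1) had a median of 0.795, with 0.577 at the low end for miR-503 with miR-542-3p and 0.912 at the high end for miR-351 with miR-542-3p. Spearman's rho had a median of 0.684 over the same pairs. With median-of-ratios factors the medians were 0.735 for r and 0.574 for rho. All 87153 pairs of these 418 names had a median r of 0.430, and 0.285 with miR-143 left out of the totals, where the members had 0.823. Without lung the median of the member pairs was 0.696. No median over all pairs was computed without lung, for rho or with median-of-ratios factors. The 2 arms of miR-542 had r = 0.786 (rho = 0.622), below miR-351 with either arm (0.912 and 0.902). Among the members miR-322 was closest to its neighbour miR-503 by r (0.846, rho = 0.807) but to miR-542-5p by rho (0.916, r = 0.795).

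The names outside the 6 with the profile nearest to the members' mean were 2 other products of the cluster, miR-503* (r = 0.909) and miR-450b-3p (0.891). miR-130a followed at 0.802, with its own highest level in lung (830 RPM), then miR-146a at 0.772 and miR-34c at 0.770. miR-503* and miR-450b-3p were among the first 10 under all 6 settings tried (5 alternatives and the main one), and miR-130a under 5 of the 6. By member, miR-542-5p and miR-450a were nearest to miR-450b-3p (0.896 and 0.913), miR-503 to miR-322* (0.834) and miR-322 to miR-503* (0.875). miR-351 was nearest to miR-34c (0.852), and miR-542-3p to miR-1199 (0.786), a name with at most 12.97 RPM.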

How the data were processed

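The authors deposited raw read counts, whole numbers, for each mature miRNA in 14 tissue libraries. Per the labels' protocols, total RNA was extracted with Trizol, pooled and prepared by the standard Illumina procedure. For the trimming, aligner, miRNA release, genome build and treatment of reads matching several names, the sources used here give nothing.

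The counts were divided by the library's miRNA total and multiplied by 1000000 (RPM). RPM has exact Poisson intervals, shares Clopper-Pearson and folds between libraries conditional binomial ones, all at 95%; without molecular identifiers they cover counting error only. The limit set by 0 reads is 3 reads, or 4.82 RPM in pancreas. Arm and member shares were described from 20 reads. With 1 library per tissue no test was run, and rules of size (10 RPM for detected, and those given with the results) took its place. The rule for named miRNAs was the 6 members, their cluster and seed relatives, and the 10 most similar profiles. Alternatives were other scalings, pseudocounts, folds, read minimums and Spearman's rho. The members and lists were chosen with earlier results of these data known. Scripts used Python 3.11.15, numpy 2.4.6, pandas 2.3.3, scipy 1.17.1 and matplotlib 3.10.9, and were tested on simulated data. RefSeq (GRCm38.p6) supplied the sequences and gene order.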

Additional observations from a re-analysis of the deposited data

How the results depend on the processing

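No paired analysis was possible because each tissue has 1 library and the labels carry no replicate numbers. With 1 library per tissue no library could be left out within a group. On the log2 scale, lung stood 1.31 above the next library for the summed level; it stood 1.57 below ovary with median-of-ratios factors (a difference of −1.57) and 0.37 below with the 5 most abundant names left out (−0.37). The difference was 1.18 over all 13 cluster names, chosen after seeing the data. For miR-322 the main difference of 0.65 became −2.0 and −0.81 under these same scalings, and with median-of-ratios factors it became −0.70 for miR-351 and −0.10 for miR-450a, both within counting error. The cause was not tested.

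The 32 member levels of at least 10 RPM became 70 at 1 RPM and 9 at 100 RPM. The enriched member, miR-542-3p, was lost at 10-fold and with 10 RPM added (0 members each). With median-of-ratios factors and without the 5 most abundant names it was lost too, at 1.08-fold and 2.48-fold, and miR-503 in ovary passed instead, which left the count at 1. Also, with 10 RPM added 1 member instead of 0 passed tau. The median correlation of 0.79 was 0.68 with Spearman's rho. The span of the miR-542 arm ratio, 4.23, was 2.19 from 100 reads and also 2.19 without oesophagus. Its rank among 133 hairpins, 71, was 14 by the span of the share, a measure chosen after seeing the data. The span of the miR-322 share, 66.3 percentage points, was 34.6 from 100 reads, which leaves out cerebellum. Of the 10 nearest names, 4 stayed with Spearman's rho, 5 with median-of-ratios factors, 6 without miR-143, 5 without the 5 most abundant names and 5 without the libraries labelled colon, ovary and pancreas. Of the other recomputed summary values, 25 moved by no more than counting error, 0.1 for a correlation or 1.5 times for a count, the 2 enriched counts with a changed member among them. Depth limits cerebellum, pancreas and the library labelled colon, where members rest on 1 to 24 reads or none.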
